A study of Bos taurus with 38 samples.

Results

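TLE6 was the gene followed here, in 19 single cattle oocytes and in the cumulus cells that surrounded each of them. It is 1 of 7 maternal effect genes that were to be described, the others being NLRP5, OOEP, PADI6, ZAR1, NPM2 and DPPA3, and it was the one whose Ensembl identifier (ENSBTAG00000001152) could be read from the study's supplementary tables as used here, 2 of them in shortened form. The other 6 were not analysed here, so nothing below is a statement about maternal effect genes as a group. TLE6 is 1 of 27607 gene identifiers counted in each compartment.

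Brilliant cresyl blue (BCB) is decolourised by glucose-6-phosphate dehydrogenase, an enzyme active in growing oocytes, so that fully grown oocytes stay blue (BCB positive) and growing oocytes lose the colour (BCB negative). RNA was sequenced from 9 BCB positive and 10 BCB negative cumulus-oocyte complexes of Bos taurus, taken from ovaries after slaughter, with 1 library from each oocyte and 1 from its own cumulus cells. No treatment other than the staining separated the groups, and the animals' breed, age and stage of the follicular wave were not analysed here. The sources used here do not say that each complex came from a different animal, so p-values measure the spread between these complexes.

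Maternal effect genes are transcribed while the oocyte grows, and their products are stored for the first divisions of the embryo, before its own genome is active. TLE6 belongs by sequence to the Groucho family of transcriptional corepressors, but in the oocyte its protein is part of the subcortical maternal complex, which lies under the cell membrane together with NLRP5 and OOEP. In the mouse, embryos of mothers without Tle6 stop during early cleavage. Of the genes not analysed here, PADI6 is needed for the cytoplasmic lattices of the oocyte, ZAR1 binds stored transcripts, NPM2 acts on chromatin and DPPA3 guards DNA methylation of the maternal genome.

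Oocyte libraries totalled 8886070 to 29810354 counts, and cumulus libraries 1103200 to 10430148. Levels are given as CPM, the counts scaled to a library of 1000000 and by the library's trimmed mean of M-values (TMM) factor. Against their labels, the 3 matched oocyte markers summed to 2738 to 5020 CPM in oocytes and 0.0903 to 92.7 CPM in cumulus cells, and the 12 cumulus and granulosa markers to 81.8 to 2565 CPM in oocytes and 5854 to 22838 CPM in cumulus cells, so neither sum overlapped between compartments. Some libraries stood apart. The cumulus libraries of complexes 66 and 68, both BCB negative, held 73.3 and 92.7 CPM of the oocyte markers ZP2, ZP3 and DAZL summed, against 0.0903 to 11.2 CPM in the other 17 cumulus libraries. The oocyte library of complex 72, BCB positive, held 2565 CPM of the 12 cumulus markers summed, against 81.8 to 606 CPM in the other 18 oocytes. Values without some of these libraries stand beside the fitted differences and the relations of TLE6 over all complexes. The permutation tests between BCB classes and most genes of the lists have no such values. In 1 relation complexes 66 and 68 form a group of their own, and it is given without them alone.

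TLE6 was abundant in every oocyte and varied little between oocytes. In BCB positive oocytes it ran from 448 CPM in complex 72 to 669 CPM in complex 24, with a median of 564 CPM. In BCB negative oocytes it ran from 486 CPM in complex 89 to 748 CPM in complex 65, with a median of 579 CPM. The ranges of the BCB classes overlapped over most of their length, and the highest of the 19 values was 1.67 times the lowest. 

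Over all 19 oocytes the level of TLE6 was 582 CPM ± 70.3 (SD, n = 19), a coefficient of variation of 12.1%. These values rested on 4706 to 16595 counts per oocyte, so counting error was small beside the spread. In the library with the fewest TLE6 counts, from complex 74, the 95% counting interval was 520 to 550 CPM. Such intervals cover counting error only.

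On the scale of log2(CPM + 1), TLE6 had an SD of 0.17 over the oocytes. Of the 587 genes kept whose mean lay within 1 log2 unit of that of TLE6, TLE6 itself included, 101 (17.2%) had a smaller SD, and their median SD was 0.24. The smallest SD among them was 0.07 and the largest 0.83. TLE6 was therefore in the less variable part of genes of like abundance, as a description with no test.

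**Figure D1:**
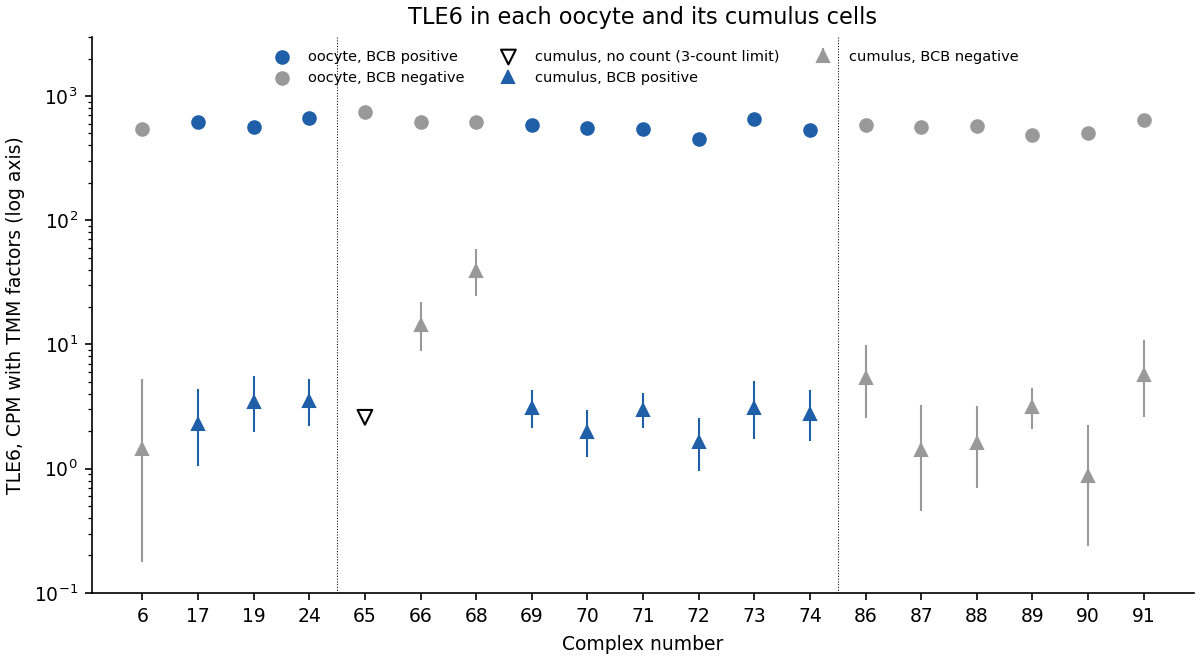
CPM of TLE6 (log axis) in each oocyte (circles) and its cumulus cells (triangles) by complex number, coloured by BCB class, with 95% counting intervals for cumulus cells, an open triangle at the limit of 3 counts for the library with no count, and dotted lines between the runs of complex numbers. The oocytes lie between 448 and 748 CPM, while 17 cumulus libraries lie at or below 5.68 CPM and those of complexes 66 and 68 lie at 14.3 and 38.8 CPM.

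TLE6 was about 115-fold higher in oocytes than in cumulus cells. In cumulus cells of BCB positive complexes it ran from 1.63 CPM in complex 72 to 3.49 CPM in complex 24, with a median of 2.97 CPM. In cumulus cells of BCB negative complexes it ran from no count in complex 65 to 38.8 CPM in complex 68, with a median of 2.37 CPM. The lowest oocyte was still 11.6 times the highest cumulus library, so the compartments did not overlap.

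The fitted difference between oocytes and cumulus cells was 6.85 on the log2 scale (SE 0.30, 95% interval 6.24 to 7.46, edgeR quasi-likelihood test with Benjamini-Hochberg adjustment, adjusted p = 9.741e-23), a fold of 115 (75.6 to 176). Most genes differed between the compartments: 88.8% of the 14785 genes tested passed the threshold, a false discovery rate (FDR) under 0.01. Of all genes tested 46.5% were higher in oocytes, and the median difference was 0.15. By size, 613 genes (4.15%) had a larger difference toward oocytes than TLE6. Without complexes 66 and 68 the difference of TLE6 was 7.38.

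Low counts of TLE6 were present in 18 of the 19 cumulus libraries, 309 in all. In complex 65 there were 0 counts of TLE6 among 1650795, which allows up to 2.59 CPM or 0.346% of the level in its own oocyte. In complex 6 there were 2 counts, with a 95% counting interval of 0.176 to 5.24 CPM. The other 17 libraries had 4 to 39 counts.

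Each cumulus library was set against the oocyte from the same complex. In BCB positive complexes the cumulus level of TLE6 was 0.355% to 0.611% of that in the oocyte, with a mean of 0.474% ± 0.0915 (SD, n = 9). In BCB negative complexes it was 0% to 6.30%, with a median of 0.463%. The highest values were 6.30% in complex 68 and 2.31% in complex 66, and the other 8 BCB negative complexes reached at most 0.911%. Without these 2 complexes the mean over 17 was 0.452% ± 0.235 (SD, n = 17).

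Other oocyte genes were set beside TLE6 after their values were seen, so the comparison with them is a description with no test. The zona pellucida genes ZP2 and ZP3, which encode glycoproteins of the oocyte's coat, were at a smaller percent of their oocyte level than TLE6, by an amount that differed between the BCB classes. ZP2 was at a median of 0.0075% and ZP3 at a median of 0.019%, against a median of 0.515% for TLE6. In BCB positive complexes the medians were 0% for ZP2, 0.00989% for ZP3 and 0.515% for TLE6. In BCB negative complexes they lay closer together, at 0.127%, 0.106% and 0.463%, or 0.0808%, 0.062% and 0.276% in the 8 complexes other than 66 and 68. TLE6 was at a higher percent than ZP2 in 18 of 19 complexes and than ZP3 in 17 of 19, by means of 0.663 and 0.565 percentage points. Without complexes 66 and 68 the means were 0.394 and 0.397 points, with TLE6 higher in 16 of 17 complexes in both cases.

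YBX2, a germ-cell RNA-binding protein, was at a smaller percent than TLE6 in 16 of 19 complexes. Its mean percent was nonetheless the higher one, with TLE6 minus YBX2 at -0.0591 points, and the cumulus library of complex 68 held YBX2 at 13.2% of its oocyte. Without complexes 66 and 68 the difference was 0.334 points. ZP2, ZP3 and YBX2 are also genes that did not pass the filter on low values in cumulus cells, whereas TLE6 did.

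ZAR1L, a relative of the maternal effect gene ZAR1, was at a mean of 1.46% over 19 complexes and exceeded TLE6 in 15 of them, or in 14 of the 17 without complexes 66 and 68. DAZL, a germ-cell translational regulator, had a median of 0.875% and exceeded TLE6 in 11 of 19 complexes, or in 11 of 17 with complexes 66 and 68 left out. The mean of DAZL was 1.85%, or 1.74% without those complexes, and was raised by complex 71, at 11.7% from 8 counts. TBPL2, the germ-line relative of the TATA-binding protein, had a median of 0.206%, below that of TLE6, and TLE6 was higher in 12 of 19 complexes. Its mean of 1.35% was carried by complex 68, at 15.0%, and was 0.627% over the 17 complexes other than 66 and 68, in 11 of which TLE6 was higher. DAZL and TBPL2 rested on 55 and 18 cumulus counts in all.

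**Figure D2:**
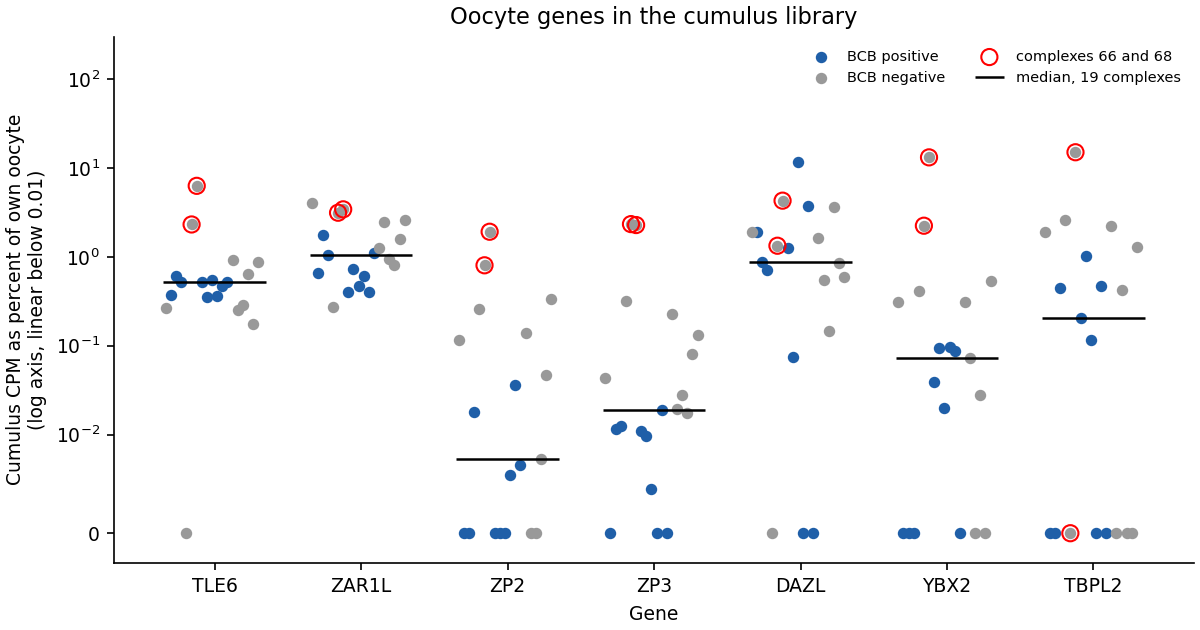
CPM in each cumulus library as a percent of the CPM in its own oocyte (log axis, linear below 0.01) for TLE6 and 6 other oocyte genes, with points coloured by BCB class, black lines at the median of 19 complexes and red rings on complexes 66 and 68. TLE6 has its median at 0.515%, ZP2 and ZP3 have theirs at 0.0075% and 0.019%, and the ringed points lie near the top for most genes.

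The proportion of some of these genes to TLE6 also differed between compartments. In oocytes there were 2.23 to 3.68 counts of ZP3 for each count of TLE6. In the cumulus libraries other than those of complexes 66 and 68 there were 38 counts of ZP3 to 265 of TLE6, a ratio of 0.143 (95% exact binomial counting interval 0.0993 to 0.202). In the cumulus libraries of complexes 66 and 68 there were 105 to 44, a ratio of 2.39 (1.66 to 3.48), but the libraries differed. Complex 66 had 78 to 21 (3.71, 2.27 to 6.33), with an interval that overlaps the range in oocytes, and complex 68 had 27 to 23 (1.17, 0.648 to 2.14), below that range. The ratio was lowest in BCB positive complexes, at 10 counts of ZP3 to 198 of TLE6 (0.0505, 0.0238 to 0.0949).

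ZP2 had 2.50 to 3.98 counts for each count of TLE6 in oocytes and 36 to 265 (0.136, 0.0931 to 0.193) in the 17 cumulus libraries. In complexes 66 and 68 it had 54 to 44 (1.23, 0.809 to 1.87), below the range in oocytes. YBX2 had 0.499 to 0.857 counts in oocytes, 24 to 265 (0.0906, 0.057 to 0.138) in the 17 cumulus libraries, and 36 to 44 (0.818, 0.512 to 1.30) in complexes 66 and 68, with 12 to 21 (0.571) in the first and 24 to 23 (1.04) in the second. For ZAR1L the proportion went the other way: 1.16 to 1.84 counts for each count of TLE6 in oocytes, and 705 to 265 (2.66, 2.31 to 3.08) in the 17 cumulus libraries. In complexes 66 and 68 it was 65 to 44 (1.48, 0.992 to 2.22), with 42 to 21 in the first and 23 to 23 in the second. DAZL and TBPL2 lay within their ranges in oocytes, at 0.192 (range 0.00953 to 0.495) and 0.0528 (range 0.0452 to 0.121) counts for each count of TLE6 in the 17 cumulus libraries. In these bulk libraries of cumulus cells, fewer cells with a transcript and less of it per cell cannot be told apart, and the part of oocyte RNA in the low TLE6 counts was not tested.

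The gene models of TLE6 and its neighbours limit how low counts can be read. In RefSeq on the assembly ARS-UCD 2.0, a later one than the ARS-UCD 1.2 and its Ensembl genes on which reads were counted, the span of TLE6 overlaps those of TLE2 and ZNF77. The libraries do not mark strand, so reads in any shared stretches cannot be told apart. TLE2, a Groucho corepressor, went the other way from TLE6, with 4.19 CPM ± 1.80 in oocytes and 30.3 CPM ± 12.3 in cumulus cells (SD, n = 19 each). Over the 19 cumulus libraries, log2 values of TLE6 and TLE2 had a Pearson's r of 0.23 (permutation p = 0.345, adjusted over 6 relations 0.415) and a Spearman's rho of 0.32 (permutation p = 0.184, adjusted 0.221). Without complexes 65 and 71, farthest from the median of TLE2, r was 0.16, and without complexes 66 and 68 it was 0.35 (permutation p = 0.169), with a rho of 0.38 (permutation p = 0.128). It was -0.06 in BCB positive and 0.54 in BCB negative complexes, and 0.13 in the run of complexes numbered 65 to 74.

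The BCB classes did not differ detectably in TLE6 in oocytes. The mean was 576 CPM ± 67.7 (SD, n = 9) in BCB positive and 587 CPM ± 75.7 (SD, n = 10) in BCB negative oocytes. The fitted difference, BCB positive minus BCB negative, was -0.03 on the log2 scale (SE 0.09, edgeR adjusted p = 0.98). Its 95% interval of -0.21 to 0.15 corresponds to folds of 0.864 to 1.11. No gene passed in this comparison (0% of 12753 tested, with 711 at an unadjusted p under 0.05, and 1 called by DESeq2). The two-sided exact permutation test of mean log2(CPM + 1) over the 92378 splits gave p = 0.751, adjusted over 4 tests 0.751.

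The complex numbers fall into 3 runs over which the classes are unevenly spread. Complexes 65 to 74 hold 6 BCB positive and 3 BCB negative oocytes, complexes 86 to 91 hold 6 BCB negative ones, and complexes 6 to 24 hold 3 and 1. Within 65 to 74, TLE6 was at 448, 535, 547, 556, 589 and 656 CPM in BCB positive oocytes and at 616, 616 and 748 CPM in BCB negative oocytes. The BCB negative values lay above 5 of the 6 BCB positive ones, and 1 BCB positive value lay between them. The difference in mean log2(CPM + 1) was -0.25 (two-sided exact permutation p = 0.0833 over 84 splits, of which the smallest possible is 0.0119, adjusted over 4 tests 0.333). In complexes 6 to 24 the difference was of the other sign, 0.19. It rests on 1 BCB negative oocyte, so a test there cannot decide. In complexes 86 to 91 the run and the class cannot be told apart.

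Complex 72, the oocyte with the lowest TLE6, was also the one with the most cumulus transcripts. Over 19 oocytes, log2 TLE6 and the log2 sum of the 12 cumulus markers in the same oocyte library had a Pearson's r of -0.60 (permutation p = 0.00772, adjusted over 6 relations 0.0232) and a Spearman's rho of -0.45 (permutation p = 0.0541, adjusted 0.221). Without complexes 72 and 88, farthest from the median of the markers, r was weaker, at -0.41 (permutation p = 0.1, unadjusted). Within complexes 65 to 74, which include complex 72, r was -0.88 (exact permutation p = 0.000604, unadjusted) and rho was -0.90 (exact permutation p = 0.00203, unadjusted). In that run the markers summed to 138 to 2565 CPM in BCB positive and 90.4 to 113 CPM in BCB negative oocytes. These ranges did not overlap, so the relation and the BCB difference of TLE6 within the run cannot be told apart. With complex 72 alone left out, r was -0.38 over 18 oocytes (permutation p = 0.124), -0.74 within complexes 65 to 74 (exact permutation p = 0.0345, unadjusted) and -0.57 in BCB positive oocytes (exact permutation p = 0.146, unadjusted). With all oocytes it was -0.08 within complexes 86 to 91, -0.83 in BCB positive and -0.32 in BCB negative oocytes. Without complex 72 the difference of TLE6 between the BCB classes was 0.012 on the log2 scale (SE 0.08, adjusted p = 0.989).

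TLE6 in oocytes had an r of -0.40 with the log10 library total (permutation p = 0.0886, adjusted 0.137) and a rho of -0.35 (permutation p = 0.141, adjusted 0.221). Without complexes 74 and 89, farthest from the median total, r was -0.43, and within complexes 65 to 74 it was -0.44, or -0.17 there and -0.34 over 18 oocytes without complex 72.

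**Figure D3:**
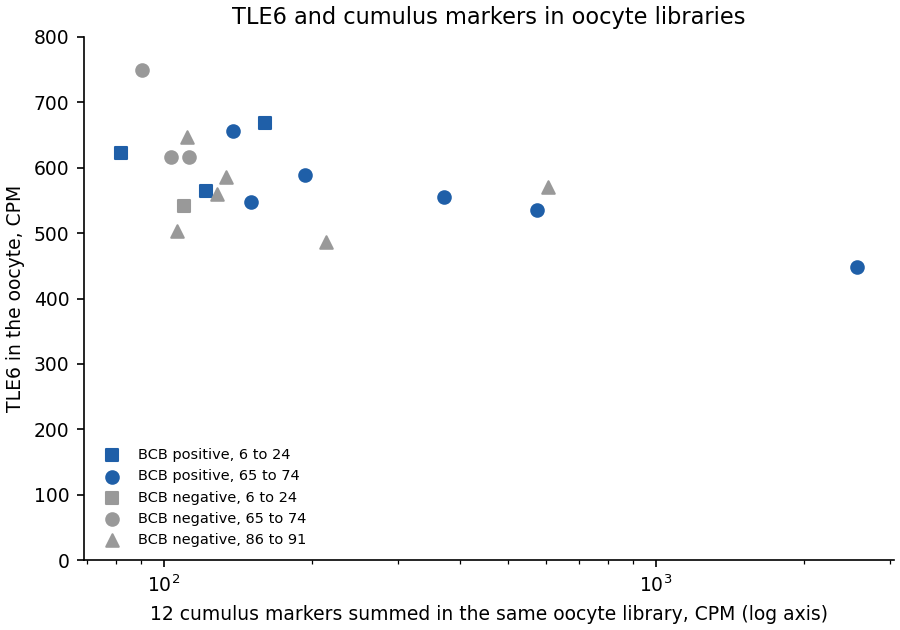
CPM of TLE6 in each oocyte against the summed CPM of 12 cumulus markers in the same library (log axis), coloured by BCB class and with a symbol for each run of complex numbers. The oocyte of complex 72 lies alone at 2565 CPM of cumulus markers and 448 CPM of TLE6, the lowest value of TLE6.

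In cumulus cells TLE6 was lower in BCB positive complexes in the fit, but the difference did not pass and it turned with the libraries used. The mean was 2.74 CPM ± 0.646 (SD, n = 9) in BCB positive and 7.25 CPM ± 11.8 (SD, n = 10) in BCB negative complexes. The fitted log2 difference was -1.08 (SE 0.60, 95% interval -2.33 to 0.17, edgeR adjusted p = 0.348), beside 0.56% of 12313 genes called. Those were 5 higher and 64 lower, or 1601 higher and 103 lower with library totals in place of TMM factors. Without complexes 66 and 68 the BCB negative mean was 2.44 CPM ± 2.09 (SD, n = 8) and the log2 difference was 0.18 (SE 0.40, adjusted p = 0.836). The difference was larger, and did not pass either, with the run of complex numbers as a covariate (-2.09, SE 0.69, edgeR adjusted p = 0.0982) and within complexes 65 to 74 alone (-2.68, SE 0.73, edgeR adjusted p = 0.099), where 66 and 68 are 2 of the 3 BCB negative complexes. BCB negative cumulus libraries were also the smaller ones, with a median total of 2252271 counts against 5853816, and held 1.17% to 17.4% counts of mitochondrial genes against 0.966% to 2.86%, and with the log10 total as a covariate the difference was 0.42.

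In cumulus cells the oocyte markers had a higher mean sum in BCB negative complexes, with no test of it. Their sum was 20.4 CPM ± 33.5 (SD, n = 10) in BCB negative and 0.636 CPM ± 0.524 (SD, n = 9) in BCB positive complexes, and 4.72 CPM ± 3.99 (SD, n = 8) in BCB negative complexes without 66 and 68. In BCB negative complexes 87 to 90, with totals of 3855234 to 8013318 counts, it was 0.607 to 2.26 CPM. The BCB positive range was 0.0903 to 1.64 CPM. The other BCB negative libraries, of 1103200 to 2339868 counts, held 4.35 to 92.7 CPM. The part of the library total was not tested. DAZL, the third marker, was not called in the difference of the BCB effect between the compartments, but ZP2 and ZP3 were, by 5.42 (SE 1.07, edgeR adjusted p = 0.00213) and 6.07 (SE 1.07, edgeR adjusted p = 0.00135). Leaving out complexes 66 and 68 gave 3.5 for ZP2, which no longer passed (edgeR adjusted p = 0.0245), and 3.33 for ZP3, which did (edgeR adjusted p = 0.00406). Neither passed with the complex as a replicate block (edgeR adjusted p = 0.0824 and 0.0751). Their part in the TLE6 difference was not tested.

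Of the single values, the exact permutation test over all 19 complexes gave a difference in mean log2(CPM + 1) of -0.27 (p = 0.634, adjusted over 4 tests 0.751). With library totals in place of TMM factors it was of the other sign, 0.10 (exact permutation p = 0.833), as was the difference in mean rank, 0.42 (exact permutation p = 0.905). Within complexes 65 to 74 the BCB positive cumulus libraries had 1.63, 1.97, 2.76, 2.97, 3.07 and 3.07 CPM, and the BCB negative ones had no count, 14.3 CPM and 38.8 CPM. The BCB negative libraries thus lay on both sides of the BCB positive ones. The difference was -1.26 (exact permutation p = 0.321, adjusted 0.643). In complexes 6 to 24 it was 0.72, with 1 BCB negative library of 2 TLE6 counts, so a test there cannot decide.

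The difference of the BCB effect between the compartments was 0.81 on the log2 scale for TLE6 (SE 0.53, edgeR adjusted p = 0.463), beside 1.7% of 14785 genes called. The called genes were 244 higher and 7 lower, or 220 and 422 with library totals in place of TMM factors, and 2 in all with the complex as a replicate block. For TLE6 it was 0.49 with that block, -0.26 without complexes 66 and 68, and 2.40 within complexes 65 to 74 (edgeR adjusted p = 0.0367). That last value did not pass the threshold, and complexes 65, 66 and 68 are the BCB negative ones there.

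**Figure D4:**
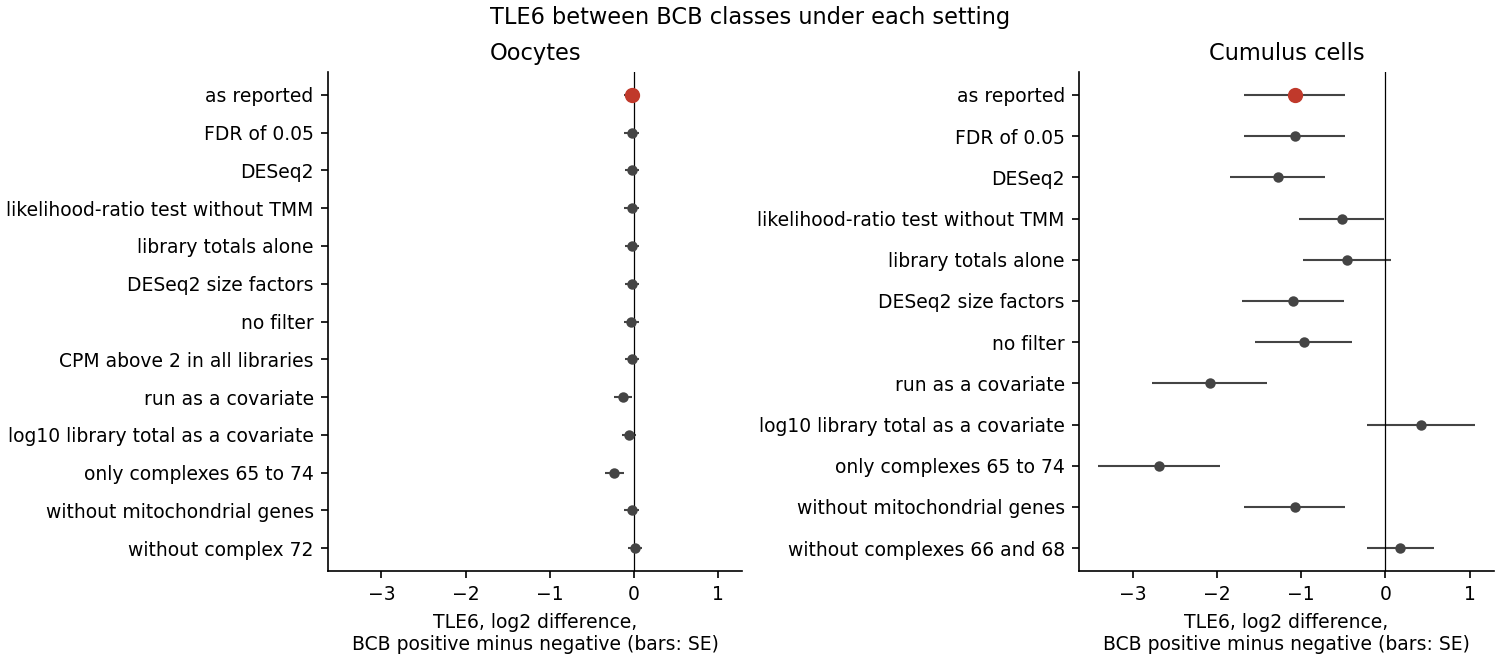
Fitted log2 difference of TLE6 between BCB positive and BCB negative complexes (points, with bars of 1 SE) in oocytes and in cumulus cells under each setting tried, the reported fit in red. In oocytes the values stay between -0.24 and 0.01, while in cumulus cells they run from -2.68 to 0.42.

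Over all 19 complexes the relation of the cumulus level of TLE6 to that in the own oocyte did not pass. Its r was 0.13 (permutation p = 0.595, adjusted over 6 relations 0.595), with a rho of 0.34 (permutation p = 0.152, adjusted 0.221). Without complexes 65 and 72, farthest from the median in oocytes, r was 0.44 (permutation p = 0.0742) and rho was 0.55 (permutation p = 0.023). With complexes 66 and 68 left out, r was -0.04 and rho was 0.28 (permutation p = 0.873 and 0.281). In BCB positive complexes r was 0.67 (exact permutation p = 0.0495) and rho was 0.68 (exact permutation p = 0.0503), and in BCB negative ones r was 0.07 and rho 0.27. Within complexes 65 to 74 r was -0.01, and within 86 to 91 it was 0.57. The p-values within classes and runs are unadjusted. For TLE6 against the oocyte markers in the same cumulus library no pooled value is given, since complexes 66 and 68 form a group of their own. Over the other 17 complexes r was -0.07 (permutation p = 0.802) and rho was 0.15 (permutation p = 0.554). The values were positive in BCB positive complexes and in complexes 86 to 91, which hold neither complex. Complexes 6 to 24 hold neither as well, and no r was computed for them. There, complex 6 had the highest marker sum, 4.35 CPM, and the lowest TLE6, 1.45 CPM. In BCB positive complexes r was 0.73 (exact permutation p = 0.025) and rho was 0.85 (exact permutation p = 0.00607), and in complexes 86 to 91 r was 0.85 (exact permutation p = 0.0486) and rho was 0.77 (exact permutation p = 0.103), all unadjusted. Few counts of the markers lay behind each value.

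Against the log10 cumulus total, TLE6 in cumulus cells had an r of -0.40 over 19 complexes (permutation p = 0.0916, adjusted over 6 relations 0.137) and a rho of -0.25 (permutation p = 0.302, adjusted 0.302). Without complexes 66 and 68, which are also the farthest from the median total, r was 0.18 (permutation p = 0.494). In groups that hold neither complex, r was -0.39 in BCB positive complexes and -0.55 in complexes 86 to 91 (exact permutation p = 0.295 and 0.251). In groups that hold both, it was -0.46 in BCB negative complexes (permutation p = 0.18) and -0.49 in complexes 65 to 74 (exact permutation p = 0.18). For complexes 6 to 24 no r was computed. There, complex 6 had the lowest total and the lowest TLE6, and complex 24 the highest of both.

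Other genes of related function were described from lists, each read against the compartment contrast, in which 46.5% of genes were higher in oocytes and 42.3% were lower. A gene that passed the filter on low values in 1 compartment alone had to differ, so its direction is no support for a list. TLE6, the 8 maternal effect genes, NPM3 and the 3 Groucho relatives passed in both, whereas PADI2, 2 of the 3 transcription factors, 2 of the 11 RNA storage genes and the 3 oocyte markers passed through oocytes alone, and 4 of the 12 cumulus markers through cumulus cells alone. Of 36 other genes with maternal effects, 8 had an identifier, of which 5 were higher in oocytes, 1 was lower and 2 did not pass, with a median difference of 1.18 against 0.15 over all genes tested. ZAR1L was higher in oocytes by 5.88 on the log2 scale (SE 0.24). UBE2A, a ubiquitin-conjugating enzyme, was higher by 0.90 (SE 0.11). H3-3B, which encodes histone H3.3, was lower in oocytes (-1.02, SE 0.13). PMS2, a mismatch repair gene, was at 0.19 (SE 0.09, edgeR adjusted p = 0.0527).

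Relatives of TLE6 in the Groucho family showed the opposite direction. TLE2, TLE3 and TLE5, corepressors or their modifiers, were lower in oocytes by log2 differences of -3.27 (SE 0.18), -3.33 (SE 0.23) and -2.76 (SE 0.14), so 3 of the 3 matched relatives passed below 0 while TLE6 was at 6.85. The other 3 of 6 listed were not analysed here. NPM3, a relative of NPM2 in the nucleoplasmin family, was at -0.52 (SE 0.19, edgeR adjusted p = 0.0106). PADI2, an arginine deiminase like PADI6, was higher in oocytes by 2.26 (SE 0.38), at low levels of 3.76 CPM ± 2.36 and 0.596 CPM ± 0.666 (SD, n = 19 each).

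Of 12 factors and regulators of oocyte transcription, 3 had an identifier. TAF4B, which passed the filter in both compartments, was higher in oocytes by 1.24 (SE 0.16), and TBPL2 and YBX2, which passed through oocytes alone, were at 7.19 (SE 0.33) and 8.78 (SE 0.46). Of 29 genes for storage and clearance of oocyte RNA, 11 had an identifier, of which 8 were higher in oocytes, 2 were lower and 1 did not pass, with a median of 0.97. CPEB1, which controls the poly(A) tails of stored transcripts, was higher by 3.59 (SE 0.10). ZFP36L2, which promotes transcript decay, was lower in oocytes (-3.59, SE 0.32), and CPEB2 was at 0.02 (SE 0.18, edgeR adjusted p = 0.903). None of the 16 genes listed for the subcortical maternal complex and the NLRP family had an identifier. In the BCB comparison of oocytes 0 genes of any list were called, beside the 0% called of all genes.

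Of the marker lists, ZP2, ZP3 and DAZL were higher in oocytes by 10.68 (SE 0.58), 10.13 (SE 0.59) and 6.81 (SE 0.51). The 12 cumulus and granulosa markers had a median difference of -6.15. COL1A2, the matched marker of theca and stroma (1 of 5 listed), was at 4.94 to 17.3 CPM in oocytes and 0 to 35.4 CPM in cumulus cells, or at most 9.83 CPM there without complexes 66 and 68. It passed the filter on low values through oocytes alone and was higher there by 2.79 (SE 0.42, edgeR adjusted p = 8.531e-08). Its BCB effect differed between the compartments by 3.74 (SE 0.84, edgeR adjusted p = 0.00567), but did not pass without complexes 66 and 68 (2.91, edgeR adjusted p = 0.0283) or with the complex as a replicate block (2.95, edgeR adjusted p = 0.126). HBA, a haemoglobin gene and the matched marker of blood (1 of 6 listed), was at 3.53 to 207 CPM in oocytes, with the highest value in complex 72, and 0.215 to 480 CPM in cumulus cells.

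**Figure D5:**
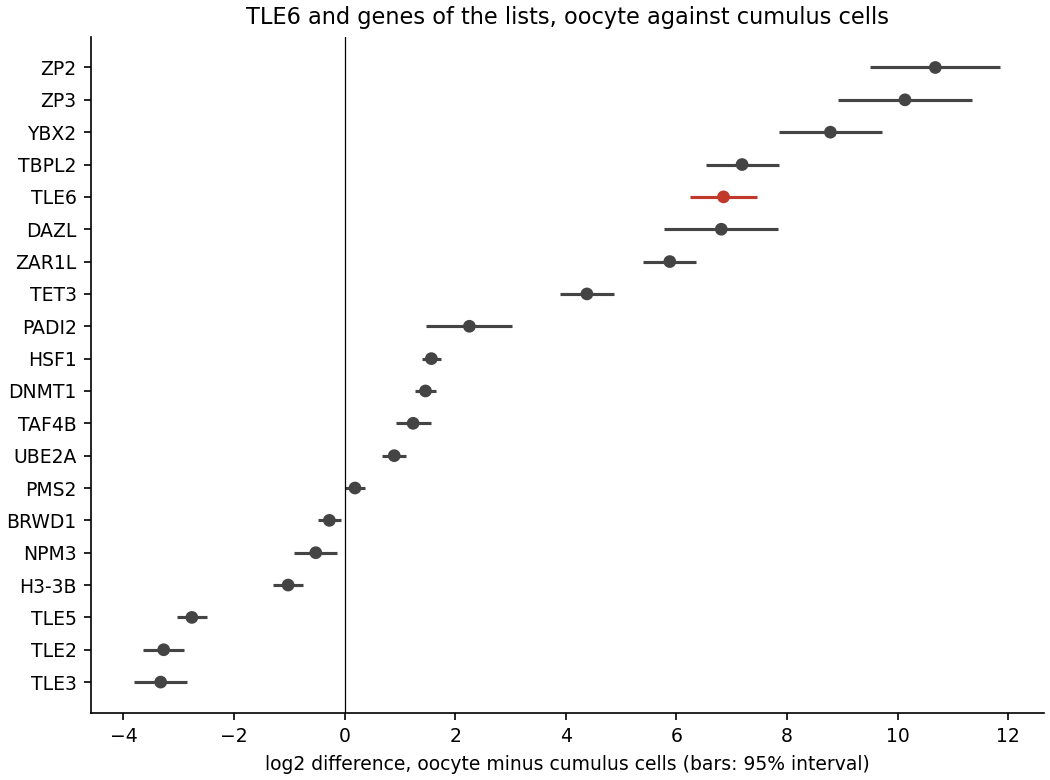
Fitted log2 difference between oocytes and cumulus cells (points, with 95% intervals) for TLE6 in red and matched genes of the lists of maternal effect genes, transcription factors, gene families and oocyte markers. TLE6 lies at 6.85 near TBPL2 and DAZL, and its Groucho relatives TLE2, TLE3 and TLE5 lie at the lower end, between -3.33 and -2.76.

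The genes whose pattern over the 19 oocytes was most like that of TLE6 were taken from the 4595 kept genes with a symbol, by Pearson's r of log2(CPM + 1), as a description with no test. They were BABAM1 (r = 0.80), a member of a DNA repair complex, DSN1 (0.79), a kinetochore protein, AP1S1 (0.79), an adaptor of vesicle transport, CASTOR1 (0.78), an arginine sensor, and PDCD6 (0.78), a calcium-binding protein. Their r stayed between 0.67 and 0.81 without the 2 oocytes farthest from the median of TLE6, and between 0.61 and 0.92 within either BCB class. Over all 12752 other genes kept the median r was -0.01 and the highest 0.86. ZAR1L had an r of 0.72, ZP3 of 0.67, ZP2 of 0.61, DAZL of 0.21 and YBX2 of 0.16, and all these values share the same libraries and scaling.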

How the data were processed

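RNA from 19 single oocytes and from their cumulus cells was made into amplified cDNA, and 38 libraries were analysed. The authors trimmed paired-end reads, aligned them to ARS-UCD 1.2 with HISAT2 2.1.0, filtered them with Samtools and assigned them with featureCounts 1.6.0 to genes of the Ensembl annotation, leaving out duplicates (versions from the submitters' processing notes). The deposited values are raw counts, unnormalized, and settings for strand and overlapping genes are not given in the sources used here. Gene lengths were not used, so levels are not compared between genes.

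Symbols came from the study's supplementary tables (4934 of 27607 identifiers), 2 of which were used in shortened form, so that a symbol missing here says nothing of the full tables. Most tables rank genes by the BCB comparisons or by co-expression, so list counts in BCB comparisons hold a biased choice of genes. TLE6 has a symbol there through its cumulus pair with CALML4.

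Genes were kept where 9 or more of the 19 libraries of a compartment exceeded a CPM of 2, 12753 in oocytes and 12313 in cumulus cells, or 14785 in either. edgeR 4.0.16 (R 4.3.3, TMM, robust quasi-likelihood test, FDR threshold 0.01) compared BCB classes within compartments, and compartments in 1 fit of 4 groups. DESeq2 1.42.0 served as an alternative. On simulated counts in which 200 genes were given a 4-fold change, the test recovered 96.5% in oocytes (0 false calls), 91.5% in cumulus cells (1 false call) and 94% between compartments (1 false call). The simulated libraries were independent and few genes changed, whereas 88.8% of genes passed between the paired compartments. The simulation therefore does not test the scaling or the pairing of that contrast. Permutation tests were exact, or used 100000 permutations for relations over 10 or more complexes (Python 3.11.15, numpy 2.4.6, pandas 2.3.3, scipy 1.17.1). Figures used matplotlib 3.10.9. A zero count was given the limit of 3 counts, and intervals are at 95%.

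Oocytes and cumulus cells are paired by the complex number in the labels, as both came from 1 complex. Their deviations from the group means correlated over genes at -0.01 to 0.21. No library copied another (highest r 0.981 between oocytes and 0.964 between cumulus libraries).

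The members and lists were chosen with earlier results of these data known. Genes named are the members, up to 4 matched genes of each list (the 2 with the highest and the 2 with the lowest mean CPM in oocytes), and the 5 genes most like TLE6. ZP2, ZP3, DAZL, YBX2, TBPL2, ZAR1L and TLE2 were set beside TLE6 in cumulus libraries after their values were seen, as were the sets without complexes 66, 68 or 72.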

Additional observations from a re-analysis of the deposited data

Results flagged for a closer look

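In the 10 cumulus libraries of BCB negative complexes, the TLE6 level of complex 68, 38.8 CPM, was farther from its neighbour than Dixon's test at the 95% level allows. The same library was flagged for TLE6 as a percent of the level in its own oocyte, 6.30%. Of 6 groups of values examined these 2 were flagged, both from the same 23 counts, and chance flags about 1 group in 20. This library had the smallest total of all, 1103200 counts, and held 26 counts of ZP2, 27 of ZP3 and 24 of YBX2. Their part in the TLE6 level was not tested.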

How the results depend on the processing

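Of 100 values recomputed under alternatives, counts of called genes included, 80 kept their direction and side of the threshold, or stayed within the stated spread. In no alternative did TLE6 pass the threshold between BCB classes, where its adjusted p was 0.269 to 0.996 for oocytes and 0.0982 to 0.878 for cumulus cells. Between compartments its log2 difference ranged from 6.12 to 7.38. Reversed signs were all of differences that did not pass: 0.012 in oocytes without complex 72, 0.42 in cumulus cells with the log10 library total as a covariate, 0.18 there without complexes 66 and 68, and -0.26 for the difference of the BCB effect without complexes 66 and 68. Within complexes 65 to 74 alone that last difference was 2.40 (edgeR adjusted p = 0.0367). It did not pass there either, and complexes 65, 66 and 68 are the BCB negative ones of that run. The exact permutation test of TLE6 over all 19 cumulus libraries, at -0.27, also changed sign, to 0.10 with library totals and 0.42 on ranks.

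With the replicate block by complex, the difference of TLE6 between compartments was 7.03 and the difference of the BCB effect 0.49, neither call changed, and the genes called for the BCB effect fell from 251 to 2. The 251 (244 higher, 7 lower) became 678 at an FDR of 0.05, 744 with DESeq2, 642 with library totals alone (220 higher, 422 lower), 527 in complexes 65 to 74, 98 without complexes 66 and 68, and 139 without complex 72. In oocytes the count of 0 became 1 with DESeq2. In cumulus cells 69 (5 higher, 64 lower) became 360 at an FDR of 0.05, 365 with DESeq2, 2480 with a likelihood-ratio test without TMM, 1704 with library totals alone (1601 higher, 103 lower), 164 without the filter, 115 with the run as a covariate, 2 with the log10 total as a covariate and 10 without complexes 66 and 68. The cause of these changes was not tested. Library totals alone moved the median of all genes from -0.01 to 0.46 in cumulus cells, TLE6 from -1.08 to -0.45, and the median between compartments from 0.15 to 0.56.

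TLE6 could not be tested in cumulus cells under a CPM above 2 in all libraries, and length-scaled levels were not run. Leaving out complexes 66 and 68, or 72, was chosen after seeing the data. Low cumulus counts limit the precision of TLE6 there.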

Other observations

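TLE6 in cumulus cells and CALML4, a calmodulin-like gene, in the oocytes of the same complexes had a Pearson's r of 0.86 over 19 complexes on counts scaled by the TMM factor only, after an inverse hyperbolic sine. When counts were also scaled to the library total, r was 0.73. This pair is how TLE6 received its identifier, so its r is a description of a chosen pair with no test.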
